A study of Homo sapiens with 6 samples.

Results

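The transcripts of 10 genes that carry, activate, inactivate or are hit by gemcitabine were taken from the expression table of HuCCT1 cells by their gene symbols: SLC29A1, SLC29A2 and SLC28A3 for uptake, DCK and CMPK1 for activation, CDA and DCTD for deamination, and RRM1, RRM2 and TYMS as targets. All 10 were among the 20811 genes of the table. HuCCT1 is a human intrahepatic cholangiocarcinoma (iCCA) cell line. One derived line was transduced with a human THY1-CMV-GFP lentivirus at an MOI (infectious viral particles added per cell) of 40 and is called HuCCT1/CD90+, since THY1 encodes CD90. The other received a blank lentivirus (Lenti-CMV-GFP-2A-Puro-Blank) at the same MOI and is called HuCCT1/CD90-, so that both lines carried a lentiviral vector with a CMV promoter and GFP. Each line gave 3 libraries, and the labels name no drug treatment. The comparison asks how genes known to act on gemcitabine were expressed in lines with and without the THY1 transgene.

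Gemcitabine is a deoxycytidine analogue. It enters cells through nucleoside transporters, is phosphorylated by deoxycytidine kinase and then by cytidylate and diphosphate kinases, and is incorporated as its triphosphate into DNA, where it halts chain extension. Its diphosphate inhibits ribonucleotide reductase, the enzyme that makes deoxynucleotides. Cytidine deaminase and, at the monophosphate level, deoxycytidylate deaminase convert the drug to uracil forms, and the deaminated monophosphate can inhibit thymidylate synthase.

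Each gene was read from 1 amplicon and its value is given in RPM, reads scaled to a fixed library total. The libraries held 8587634 to 10551516 reads on genes, so that 3 reads, used here as the floor of detection, correspond to between 0.284 and 0.349 RPM. THY1, the transduced gene, had 0, 1 and 0 reads in HuCCT1/CD90- and 435, 445 and 680 reads in HuCCT1/CD90+, at least 179-fold higher against the floor per library, as labelled. The biliary keratins KRT7 and KRT19 were at 3042 RPM or more in every library, while ALB, TTR and CYP3A4 of hepatocytes and PTPRC and CD3E of leukocytes were at the floor in both lines. The summed level of 5 cholangiocyte markers lay between 6461 and 7336 RPM in HuCCT1/CD90- and was higher, 7941 to 8835 RPM, in HuCCT1/CD90+, with 3 of the 5 higher. Of 6 fibroblast markers 5 were lower in HuCCT1/CD90+, and their sum went from between 41.8 and 64.9 RPM to between 20.3 and 24.7 RPM. The hepatocyte markers summed to 18.95 to 22.1 RPM in HuCCT1/CD90- but only 1.86 to 3.22 RPM in HuCCT1/CD90+, with 2 of 5 lower, and the leukocyte markers to between 119.9 and 144 RPM and between 88.1 and 104.7 RPM, with CD68 higher and CD14 lower. These calls are at a limma adjusted p of 0.05, which 18.9% of all genes passed, and under a block for replicate number 2 cholangiocyte markers stayed higher and 2 fibroblast markers (LUM and PDGFRB) lower. The part of these differences in the results was not tested. In bulk RNA a smaller number of cells that express a gene and less of its RNA per cell cannot be told apart.

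Of the 10 genes, 2 rose and 3 fell in HuCCT1/CD90+, with 0.05 as the limit of the adjusted p (limma on log2(RPM + 1), Benjamini-Hochberg adjustment over all genes). SLC29A2 and CDA were higher, and SLC29A1, DCK and TYMS were lower. Over all genes 18.9% passed the same test (9.41% higher, 9.52% lower), and among the 8794 genes averaging 10 RPM or more, which include 9 of the 10 members, 28.4% passed, 14.3% as higher and 14.1% as lower. When limma was fitted to these 8794 genes alone, 42.2% passed and again 5 of the 9 members, with CMPK1 in place of DCK. Whether the members' share differs from that of other genes at their level was not tested. Under a block for replicate number 3 members passed (SLC29A2, CDA and TYMS) and the share of all genes called was 13.1%. The study's own thresholds were a 1.5-fold change and an unadjusted p of 0.05. They were met by 3 members, SLC29A2 and CDA as higher and TYMS as lower, against 20.1% of all genes (10.1% higher, 9.98% lower) and 28.1% of those averaging 10 RPM or more (14.9% higher, 13.2% lower). The libraries of the lines did not overlap for 7 of these 9 members, 3 higher and 4 lower in HuCCT1/CD90+, against 52.5% of genes at that level (26.6% higher, 26% lower) and 35% of all genes (17.3% higher, 17.7% lower). The median log2 fold change of the 10 members was 0.16, against 0.01 over genes averaging 10 RPM or more.

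**Figure D1:**
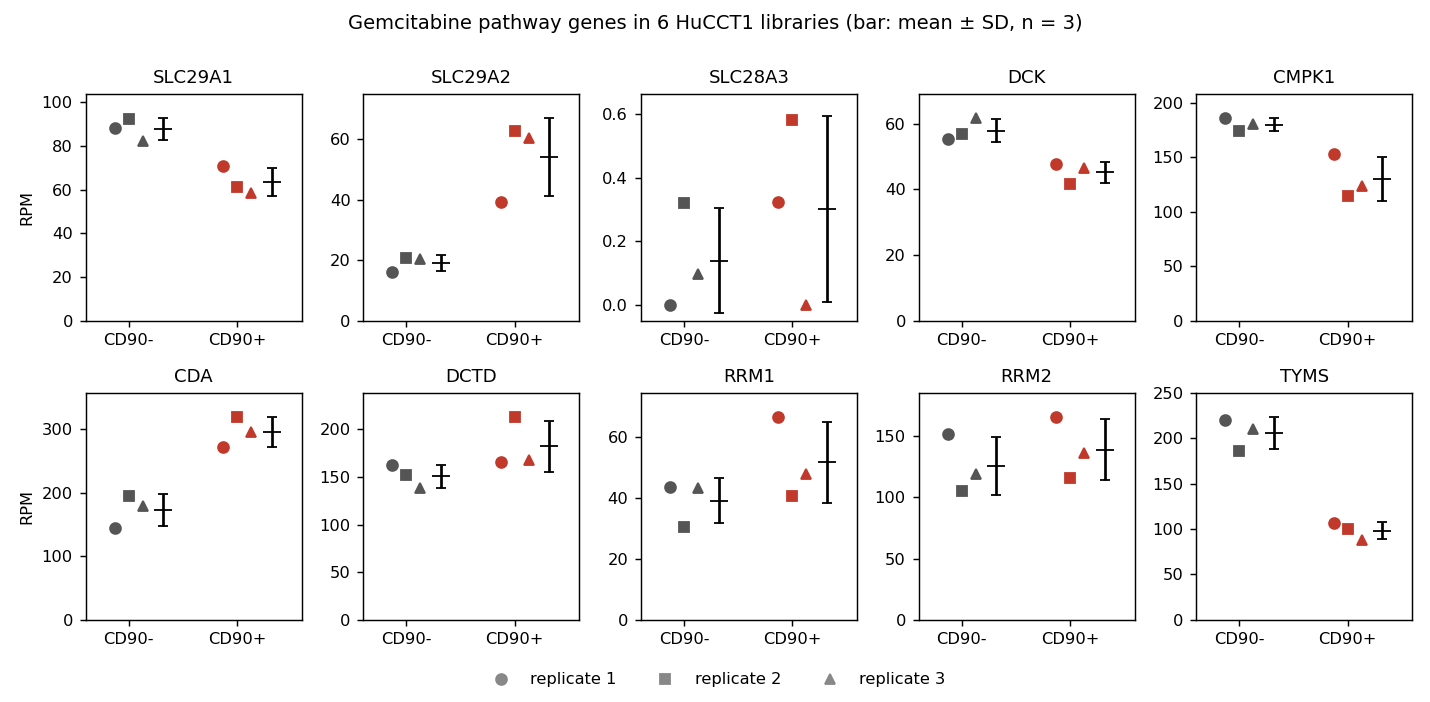
RPM of the 10 genes in each library of HuCCT1/CD90- (grey) and HuCCT1/CD90+ (red), with a marker shape for each replicate number and the mean ± SD of 3 libraries in black. The axes start at 0 except for SLC28A3, which had at most 5 reads in any library, and the lines are fully apart for SLC29A1, SLC29A2, DCK, CMPK1, CDA, DCTD and TYMS.

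The sequence just upstream is given for SLC29A1 and TYMS, which fell, and CDA, which rose, so that the regions next to a called gene of each direction can be read side by side. It was taken from the RefSeq promoter table (GRCh38.p14), from 250 bases before the listed start up to the first base that lies in an exon of GENCODE 29. For SLC29A1 the first of its listed starts was used, SLC29A2 has no entry, and for DCK only 40 bases lay outside exons. Each sequence is written 5′ to 3′ on the strand of its gene, and capitals would mark the GC box GGGCGG or a CCAAT box on either strand, of which these stretches hold none. The stretch before the other listed start of SLC29A1, not shown here, has 159 bases outside exons and holds 1 GGGCGG.
SLC29A1, chr6:44219365-44219504, plus strand: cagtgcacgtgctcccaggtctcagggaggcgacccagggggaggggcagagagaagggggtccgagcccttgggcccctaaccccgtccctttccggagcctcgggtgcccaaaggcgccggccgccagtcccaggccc
CDA, chr1:20588847-20588947, plus strand: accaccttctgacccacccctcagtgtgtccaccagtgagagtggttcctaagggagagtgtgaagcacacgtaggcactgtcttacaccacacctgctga
TYMS, chr18:657403-657603, plus strand: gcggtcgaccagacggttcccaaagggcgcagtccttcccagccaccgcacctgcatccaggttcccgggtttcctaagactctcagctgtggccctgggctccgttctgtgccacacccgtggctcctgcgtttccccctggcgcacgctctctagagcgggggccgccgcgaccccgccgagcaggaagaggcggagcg
In the whole window of 250 bases, exons included, the first SLC29A1 entry held 2 matches to GGGCGG on either strand, DCK 3, and TYMS and CDA none, while 42.6% of the 35116 promoters of the table hold at least 1. CCAAT was in none of these 4 windows and in 32% of all promoters. The share of G and C was 73.2% for SLC29A1, 78% for DCK, 60.4% for CDA and 71.2% for TYMS.

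The transporters differed in direction. SLC29A2 (ENSG00000174669.11, chromosome 11 of GRCh38 from 66362521 to 66372214) encodes ENT2, an equilibrative carrier that moves nucleosides down their gradient. It stood at 16.2, 20.9 and 20.5 RPM in the HuCCT1/CD90- libraries and at 39.3, 62.8 and 60.4 RPM in the HuCCT1/CD90+ libraries. Every HuCCT1/CD90+ library was above every HuCCT1/CD90- library, although replicate 1 of HuCCT1/CD90+ lay well under the other two. The mean rose from 19.2 ± 2.58 to 54.2 ± 12.9 RPM (SD, n = 3 each), or 1.43 in log2 (SE 0.23, limma adjusted p = 0.020). This was the largest change of the 10 members, and 6.82% of genes averaging 10 RPM or more changed by as much in either direction. Without HuCCT1/CD90+ replicate 1 it passed with an adjusted p of 0.013, and without any one of the other 5 libraries it did not, with adjusted p-values up to 0.075.

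SLC29A1 (ENSG00000112759.17, chromosome 6 from 44219505 to 44234151) encodes ENT1, the equilibrative carrier held to be the main route of gemcitabine into tumour cells. Its values were 88.1, 92.6 and 82.5 RPM in HuCCT1/CD90- and 71.0, 61.1 and 58.4 RPM in HuCCT1/CD90+. The lines did not overlap, and the mean fell from 87.7 ± 5.06 to 63.5 ± 6.62 RPM (SD, n = 3 each), or -0.46 in log2 (SE 0.09, limma adjusted p = 0.034). Of genes averaging 10 RPM or more, 39.0% changed by as much. Under a block for replicate number the adjusted p was 0.077, and of the fits without 1 library only that without HuCCT1/CD90+ replicate 1 passed (0.025), the others giving up to 0.11. SLC28A3, which encodes the concentrative carrier CNT3, was barely detected: 0, 3 and 1 reads in HuCCT1/CD90- and 3, 5 and 0 reads in HuCCT1/CD90+. HuCCT1/CD90- was at the floor, and the mean of HuCCT1/CD90+, 0.301 RPM, was also under it, so no fold is given and a difference was not detectable at this depth.

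DCK (ENSG00000156136.9, chromosome 4 from 70992538 to 71030914) encodes deoxycytidine kinase, whose step limits the activation of gemcitabine. The HuCCT1/CD90- libraries held 55.3, 56.7 and 61.7 RPM and the HuCCT1/CD90+ libraries 47.6, 41.6 and 46.4 RPM. Each HuCCT1/CD90+ library was below each HuCCT1/CD90- library, by a small step. The mean fell from 57.9 ± 3.38 to 45.2 ± 3.20 RPM (SD, n = 3 each), or -0.35 in log2 (SE 0.07, limma adjusted p = 0.037), and 50.7% of genes averaging 10 RPM or more changed by as much. The call did not hold under a block for replicate number (adjusted p = 0.091), with only genes of at least 10 RPM (0.060), with edgeR (0.12) or DESeq2 (0.062) on reads, or without any 1 of the 6 libraries (0.070 to 0.10). In GENCODE 29 the span of DCK lies over that of MOB1B on the same strand for 29912 bases, and the amplicon's place is not known. MOB1B lay between 9.86 and 14.0 RPM in HuCCT1/CD90- and higher, from 17.8 to 28.97 RPM, in HuCCT1/CD90+ (log2 difference 0.82, limma adjusted p = 0.088).

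CMPK1 (ENSG00000162368.13, chromosome 1 from 47333797 to 47378839) encodes the cytidylate kinase that forms the diphosphate. It had 185.9, 174 and 180.7 RPM in HuCCT1/CD90- and 153, 114.5 and 124 RPM in HuCCT1/CD90+. The lines were apart, with a mean of 180.2 ± 5.996 RPM against 130.5 ± 20.1 RPM (SD, n = 3 each), but the log2 fold change of -0.47 (standard error 0.12, 95% confidence interval from -0.79 to -0.15) did not pass in the main test (adjusted p = 0.065, limma). The unadjusted p was 0.014. It passed with edgeR (adjusted p = 0.012), with DESeq2 (0.0094), with only genes of at least 10 RPM (0.024) and without HuCCT1/CD90+ replicate 1 (0.015). It did not pass under a block for replicate number (0.094) or without any one of the other 5 libraries (0.13 to 0.19).

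Of the deaminase genes, CDA rose and DCTD did not pass. CDA (ENSG00000158825.5, chromosome 1 from 20588948 to 20618908) encodes cytidine deaminase, which inactivates the drug. Its values were 144.9, 194.8 and 179.2 RPM in HuCCT1/CD90- and 272.3, 319.1 and 296.1 RPM in HuCCT1/CD90+. The lines did not overlap, and the mean rose from 173 ± 25.5 to 295.8 ± 23.4 RPM (SD, n = 3 each), or 0.78 in log2 (SE 0.14, limma adjusted p = 0.025). Under a block for replicate number the rise still passed (adjusted p = 0.032). It passed without HuCCT1/CD90- replicate 1 (0.031) or replicate 2 (0.042), and not without HuCCT1/CD90- replicate 3 or any library of HuCCT1/CD90+, with adjusted p-values up to 0.090.

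DCTD (ENSG00000129187.14, chromosome 4 from 182890060 to 182917936) encodes deoxycytidylate deaminase, which acts on the monophosphate. It held 162.3, 152 and 138.2 RPM in HuCCT1/CD90- and 165.4, 212.7 and 167.9 RPM in HuCCT1/CD90+. The lowest HuCCT1/CD90+ library lay just above the highest HuCCT1/CD90- library. Its log2 difference of 0.26 (SE 0.13, 95% interval -0.08 to 0.60) did not pass (adjusted p = 0.26, limma).

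TYMS (ENSG00000176890.15, chromosome 18 from 657604 to 673578) encodes thymidylate synthase, which makes dTMP from dUMP. It was at 220.7, 186.2 and 210.3 RPM in HuCCT1/CD90- and at 106.9, 100.03 and 88.4 RPM in HuCCT1/CD90+. The groups were far apart, and the spread within each was small beside the distance between them. The mean fell from 205.7 ± 17.7 to 98.4 ± 9.32 RPM (SD, n = 3 each), or -1.06 in log2 (SE 0.10, limma adjusted p = 0.0055), and 11.2% of genes averaging 10 RPM or more changed by as much. It was the only one of the 10 members called in each of the 18 other fits, the replicate block (adjusted p = 0.037) and the omission of any 1 library (0.015 to 0.030) included. The end of TYMS lies over ENOSF1 on the opposite strand for 3255 bases in GENCODE 29, and whether counting used strand is not given in the sources used here. ENOSF1 fell as well, from 32.0 ± 3.14 to 19.3 ± 2.64 RPM (-0.70 in log2, limma adjusted p = 0.027), and reads from the overlap cannot be assigned to 1 of the genes. TYMSOS lies over the first 737 bases of TYMS, also on the opposite strand. The annotation also places AC007240.1 over RRM2 on the same strand and, on the opposite strand, AP001107.9 over 2284 bases of SLC29A2, AL356134.1 and AL157886.1 over SLC28A3 and RRM1-AS1 over RRM1. It names the processed pseudogenes TYMSP1 and TYMSP2, and RRM2P2, RRM2P3 and RRM2P4 for RRM2, with which reads could be shared.

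The subunits of ribonucleotide reductase did not pass. RRM1 (ENSG00000167325.14, chromosome 11 from 4094707 to 4138876), the large catalytic subunit, held 43.8, 30.5 and 43.3 RPM in HuCCT1/CD90- and 66.6, 40.6 and 48.0 RPM in HuCCT1/CD90+. Its lines overlapped, and the log2 difference came to 0.38 (SE 0.25, 95% interval -0.29 to 1.05, adjusted p = 0.42, limma). RRM2 (ENSG00000171848.14, chromosome 2 from 10120698 to 10131419), the small subunit that peaks in S phase, held 151.8, 105.2 and 119.3 RPM in HuCCT1/CD90- and 165.4, 115.4 and 136.3 RPM in HuCCT1/CD90+. Again the lines overlapped, with a log2 difference of 0.15 (SE 0.20, 95% interval -0.39 to 0.69, adjusted p = 0.76, limma). The intervals leave room for a rise of either gene or for a small fall.

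Both reductase genes were higher in HuCCT1/CD90+ in 3 of 3 same-numbered pairs, and both had their highest value in replicate 1 in each line. Under a block for replicate number the adjusted p was 0.059 for RRM2 and 0.19 for RRM1 (limma), which did not pass either. Of 23 genes of replication and S phase, 13 (56.5%) had their highest value in replicate 1 of both lines, against 15.8% of genes averaging 10 RPM or more. The spread of RRM1 and RRM2 between replicates thus went along with that of S phase genes, whose part in it was not tested.

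Ratios within a library do not depend on its scaling, although amplicons can differ in efficiency, so that a ratio is read only between the lines and not as a ratio of transcripts. DCK over CDA, a kinase that activates the drug over a deaminase that inactivates it, was 0.381, 0.291 and 0.344 in HuCCT1/CD90- and 0.175, 0.1303 and 0.157 in HuCCT1/CD90+. All 3 HuCCT1/CD90+ libraries lay lower, by 2.20-fold in the geometric mean. The log2 ratio went from -1.57 ± 0.20 to -2.71 ± 0.21 (SD, n = 3 each). SLC29A1 over SLC29A2 was 5.44, 4.44 and 4.03 in HuCCT1/CD90- and 1.80, 0.974 and 0.966 in HuCCT1/CD90+, 3.85-fold lower. RRM2 over RRM1 overlapped between the lines, with log2 ratios of 1.68 ± 0.19 and 1.44 ± 0.11. These ratios were not tested. For DCK over CDA and SLC29A1 over SLC29A2 the lines were already apart in each gene, in opposite directions. Both ratios therefore had to separate and add nothing to the single genes. The log2 fold change was 0.78 for CDA and -0.35 for DCK.

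**Figure D2:**
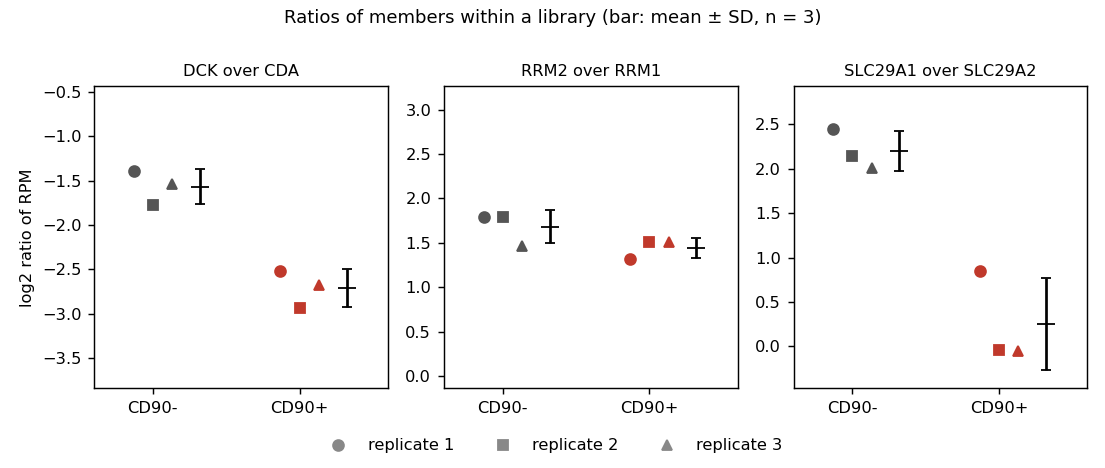
Log2 of the ratio of RPM values within each library for DCK over CDA, RRM2 over RRM1 and SLC29A1 over SLC29A2, in HuCCT1/CD90- (grey) and HuCCT1/CD90+ (red), with the mean ± SD of 3 libraries in black and the same span on each axis. The lines are apart for DCK over CDA (-1.57 against -2.71) and for SLC29A1 over SLC29A2 (2.20 against 0.25), and overlap for RRM2 over RRM1.

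To see whether a member moved alone or with the genes around it, its change was set beside the median change of its 50 nearest neighbours, counting only those that averaged 10 RPM or more. CDA rose while its neighbours had a median of -0.20, DCK fell while its neighbours had a median of 0.36, and TYMS fell while its neighbours had a median of 0.14. These 3 thus moved against the median of their neighbours, although ENOSF1, which overlaps TYMS, fell as well (-0.70 in log2). RRM2 and SLC28A3, which did not pass, had log2 values of 0.15 and 0.18 beside neighbours at -0.05 and -0.16. The rise of SLC29A2 stood against 0.24. RRM1 and its neighbours had the same log2 fold change to within 0.03 (0.38 and 0.36), and that of DCTD was under that of its neighbours (0.26 and 0.33). The neighbours of SLC29A1 had a median of -0.10 and those of CMPK1 -0.21, which left CMPK1 at -0.26 (limma adjusted p = 0.26) once taken off. With the neighbours' median taken off, SLC29A2, CDA, DCK and TYMS passed (adjusted p = 0.034, 0.015, 0.0067 and 0.0042, limma) and SLC29A1 did not (0.070), while DCTD turned to -0.06 (0.92). A change opposite in sign to the neighbours' median grows when that is taken off, and the error of the median was not carried. The smaller adjusted p of CDA, DCK and TYMS is therefore no further support for their calls.

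**Figure D3:**
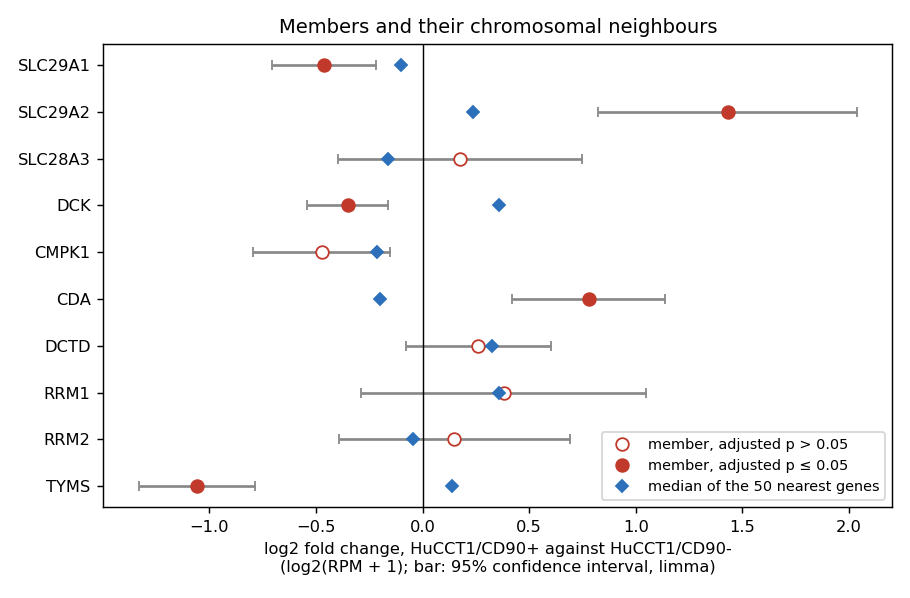
Log2 fold change of the 10 genes between HuCCT1/CD90+ and HuCCT1/CD90- on the log2(RPM + 1) scale, with 95% confidence intervals (circles, filled where the adjusted p was at most 0.05 in limma), and the median of the 50 nearest genes (blue diamonds). CDA, DCK, TYMS, RRM2 and SLC28A3 lie on the other side of 0 from their neighbours, and the other 5 on the same side, with RRM1 and DCTD close to theirs.

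Other genes of the pathway were taken from 5 lists with 62 genes in all, of which 9 rose and 9 fell in HuCCT1/CD90+ (limma, adjusted p of at most 0.05), against 18.9% of all genes called and 28.4% of those averaging 10 RPM or more, to which 46 of the 62 belong. Under a block for replicate number 5 rose and 7 fell. Of the genes called, ABCG2, SLC28A2, TK2, NT5C2, NT5C3L, DHODH, MCM3 and WEE1 passed without any 1 library, and the others lost their call without at least 1. Of 9 other carriers and exporters, 2 rose and 2 fell, and the median log2 fold change was 0.09. It was 0.42 over the 5 genes whose mean lay above the floor in at least 1 line, with a gene at the floor of the other set at its bound. ABCG2, an efflux pump, fell from 29.5, 24.1 and 32.7 RPM to 1.82, 1.86 and 1.52 RPM, or -3.43 in log2 (limma adjusted p = 0.00061). ABCC5, an exporter of nucleotide analogues, rose from 5.56 ± 1.32 to 16.3 ± 3.88 RPM (SD, n = 3 each, adjusted p = 0.025), although the genes around it had a median of 0.62 and its own change did not pass once this was taken off (0.0996). SLC29A3, which encodes the intracellular carrier ENT3, rose by 0.50 on the log2 scale (limma adjusted p = 0.027, or 0.10 with the block). SLC28A2, the gene of the concentrative carrier CNT2, had 13, 15 and 10 reads in HuCCT1/CD90- and 0, 1 and 1 reads in HuCCT1/CD90+, at least 3.63-fold lower against the floor per library (adjusted p = 0.0082). ABCC4 had at most 4 reads in any library, and no fold is given.

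**Figure D4:**
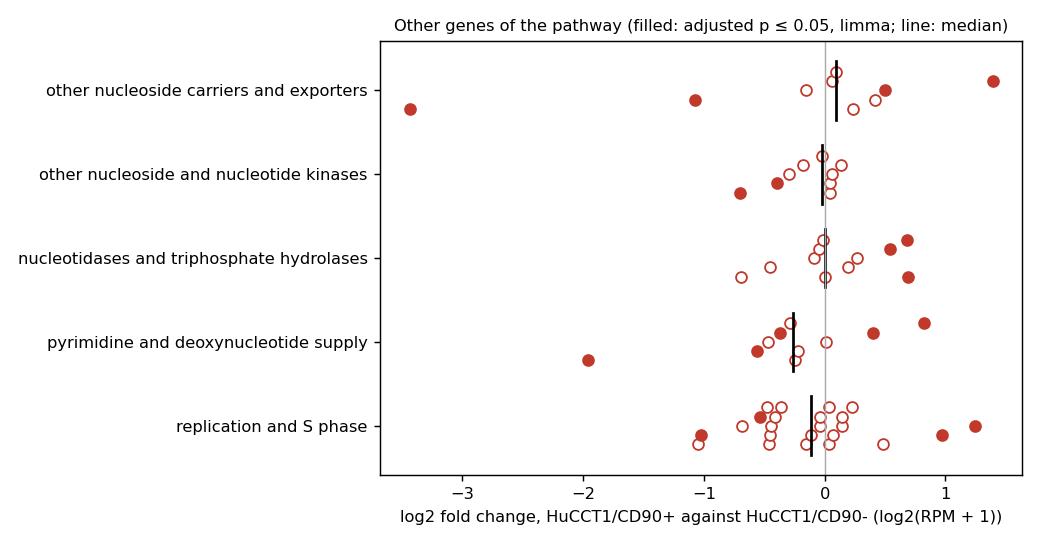
Log2 fold change between HuCCT1/CD90+ and HuCCT1/CD90- of the 62 genes of 5 further lists, 1 circle per gene (filled where the adjusted p was at most 0.05 in limma), with the median of each list as a black line. The medians lie between -0.26 and 0.09, while ABCG2 (-3.43) and TYMP (-1.96) are the farthest to the left.

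Among 9 other nucleoside and nucleotide kinases none rose and 2 fell, with a median log2 fold change of -0.02 (-0.07 over 8 genes with bounds). TK2, the mitochondrial kinase that can also phosphorylate deoxycytidine, fell from 65.3 ± 4.39 to 39.9 ± 3.10 RPM (SD, n = 3 each, log2 fold change -0.70, adjusted p = 0.0081, or 0.059 with the block, limma). UCK2, a uridine-cytidine kinase, fell by 0.40 on the log2 scale (limma adjusted p = 0.034), close to the median of -0.33 of its neighbours, and did not pass with this taken off (0.70). CMPK2 had at most 4 reads in any library, so no fold is given. Of 11 nucleotidases and hydrolases, which remove phosphates from nucleotides, 3 rose and none fell, with a median of 0 (0.20 over 9 genes with bounds). SAMHD1, a triphosphate hydrolase named after its values were seen, went from 21.4 ± 2.81 to 13.1 ± 3.21 RPM (SD, n = 3 each) with lines that did not overlap. It did not pass in the main test (limma adjusted p = 0.11). SAMHD1 was lower at the study's thresholds, with edgeR (adjusted p = 0.0036), with DESeq2 (0.0096) and among genes averaging 10 RPM or more (0.0098). It did not pass under the replicate block (limma adjusted p = 0.15), with the neighbours' median taken off (0.084) or without any 1 library (0.12 to 0.25). NT5C2, a cytosolic nucleotidase, rose from 109.5 ± 4.33 to 176.6 ± 18.1 RPM (SD, n = 3 each, log2 fold change 0.68, adjusted p = 0.011, or 0.056 with the block), and NT5E (CD73), which acts at the cell surface, from 86.4 ± 8.77 to 140.5 ± 19.9 RPM (0.69 in log2, limma adjusted p = 0.035 and 0.10 under the block). NT5C3B, listed under its older symbol NT5C3L, rose from 44.6 ± 0.456 to 65.3 ± 3.32 RPM (0.54 in log2, limma adjusted p = 0.0029). NT5M was at the floor in HuCCT1/CD90+ with 1, 3 and 1 reads and had 4, 6 and 9 reads in HuCCT1/CD90-, and did not pass (adjusted p = 0.12).

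In the list of pyrimidine and deoxynucleotide supply 2 of 10 genes rose and 3 fell, with a median log2 fold change of -0.26. TYMP, which encodes thymidine phosphorylase, fell from 50.04, 102.7 and 70.5 RPM to 14.7, 19.4 and 19.1 RPM (-1.96 in log2, SE 0.30, limma adjusted p = 0.018). UMPS, whose enzyme makes UMP, rose from 72.5 ± 12.0 to 127.8 ± 10.9 RPM (SD, n = 3 each, adjusted p = 0.028), on a stretch of chromosome 3 whose genes had a median of 0.57, and did not pass with this taken off (0.38). DHODH and CAD of the de novo route fell, with log2 fold changes of -0.56 and -0.37 (adjusted p = 0.0051 and 0.043), and CTPS2, a CTP synthase, rose with 0.40 (adjusted p = 0.032). With the block CAD and CTPS2 did not pass (0.12 and 0.13).

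Replication and S phase genes were listed because RRM1, RRM2 and TYMS are expressed with them. Of 23 genes 2 rose and 2 fell, and the median log2 fold change was -0.11, with 9 genes above 0 and 14 below. The libraries of the lines did not overlap for 13 genes, 3 as higher and 10 as lower. Among genes averaging 10 RPM or more this held for 52.5% (26.6% higher, 26% lower), and among all genes for 35% (17.3% higher, 17.7% lower). On reads, edgeR and DESeq2 each called 3 higher and 8 lower, and limma 2 higher and 8 lower among the 21 genes averaging 10 RPM or more, while under the replicate block 2 rose and 2 fell. The shares of all genes tested that were called in these fits were 27.6% with edgeR, 31.3% with DESeq2, 42.2% with limma on genes averaging 10 RPM or more and 13.1% under the block. MCM3, a subunit of the replicative helicase, fell from 304.9 ± 49.97 to 148.2 ± 8.17 RPM (SD, n = 3 each, log2 fold change -1.03, adjusted p = 0.011, limma), a change close in size to that of TYMS. POLE, the catalytic subunit of DNA polymerase epsilon, fell by 0.53 on the log2 scale (limma adjusted p = 0.046, or 0.051 with its neighbours' median taken off). The kinase gene WEE1, which holds back entry into mitosis, rose from 11.4 ± 0.702 to 23.4 ± 1.28 RPM (0.98 in log2, limma adjusted p = 0.0018), and CCNE1, the gene of cyclin E1, from 3.19 ± 0.940 to 8.84 ± 1.54 RPM (1.24 in log2, limma adjusted p = 0.023).

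The genes most like SLC29A2 and TYMS, the members with the smallest adjusted p in each direction, were sought by Pearson's r of log2(RPM + 1) over the 6 libraries among 8793 genes averaging 10 RPM or more. For SLC29A2 these were AGPAT3, SLC9A8 and ATP6V0E1, with r = 0.998, 0.998 and 0.996. For TYMS they were HMGB3, IVNS1ABP and ANXA6, each with r = 0.997. As 410 and 552 genes reached an r of 0.95, which 3 libraries on either side of a gap give readily, the order among them carries little.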

How the data were processed

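RNA from 3 libraries of each line was read on an Ion S5 Prime with an AmpliSeq panel that has 1 amplicon per gene. The deposited values are RPM, which the authors obtained by counting reads on each amplicon (ampliSeqRNA plugin) and scaling them to the library total, for 20811 genes and without pooling. The submitters' processing notes name hg19 and the Transcriptome Analysis Console. Dividing by the value of 1 read gave whole numbers for 100% of the values (within 0.1 read), at 8587634 to 10551516 reads per library. Floors cover counting error only, since PCR reads carry no molecular identifiers.

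The lines were compared with limma 3.58.1 under R 4.3.3, by lmFit and eBayes on log2(RPM + 1) without filter or block, over all genes with Benjamini-Hochberg adjustment, as the study used limma. This scale understates changes of low genes. The labels do not say whether the libraries of a line came from separate cultures, so p-values may measure technical spread only. The transgene and the line go together, so an effect of THY1 and other differences between the lines cannot be told apart. Deviations of same-numbered libraries from their line means correlated with r from 0.18 to 0.32, and those of differently numbered ones from -0.29 to 0.07. On this check alone, equal numbers were treated as pairs.

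The alternatives were offsets of 0.1 and 5 RPM, minimum means of 1 and 10 RPM, quantile normalization, median centring, limma's trend and robust options, a block for replicate number, omission of single libraries, edgeR 4.0.16 without and with filterByExpr and DESeq2 1.42.0 on recovered reads, the median of 50 neighbouring genes taken off, and the study's thresholds. For the neighbours, their median change was divided out of the HuCCT1/CD90+ RPM values before the test. Gene positions are those of GENCODE 29 (GRCh38), looked up by symbol, and are not positions of amplicons. Promoters, trimmed before the first GENCODE exon, are from RefSeq (GRCh38.p14), and 8 of the 10 members had an entry.

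The members and lists were chosen with earlier results of these data known. Named are all members, THY1, in each of the 5 other lists at most the 4 largest called changes in each direction and genes at the floor in 1 line only, and the 3 genes most like SLC29A2 and TYMS. SAMHD1, and MOB1B and ENOSF1, which lie over members, were added after their values were seen. Markers of cholangiocytes, hepatocytes, fibroblasts and leukocytes served to check the cell type. The scripts were tested on simulated data.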

Additional observations from a re-analysis of the deposited data

How the results depend on the processing

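Leaving out 1 library at a time left 0 to 1 members called higher and 1 to 3 called lower, and 3 to 5 pathway genes higher and 5 to 7 lower, while the share of all genes called went from 18.9% to between 10.6% and 14.1%. With the replicate block 1 member was lower and 5 pathway genes were higher, and at the thresholds of the study 1 member was lower. Pathway genes called lower numbered 14 with a minimum mean of 10 RPM and with median centring, 16 with edgeR, 15 with filterByExpr and 16 with DESeq2, against 9, and 8 of these were replication and S phase genes with edgeR and with DESeq2. Calls over all genes tested rose as well in these fits, from 18.9% to 42.2%, 24.7%, 27.6%, 44.4% and 31.3% in the same order. For these counts the cause was not tested. The log2 fold change of DCTD turned to -0.062 with the neighbours' median taken off. Without 1 library, ABCC4 ranged from -0.055 to 0.22 and CMPK2 from -0.16 to 0.12 (0.013 without HuCCT1/CD90- replicate 3), at a few reads each. The other 9 members kept their direction in each alternative that gave them a value. With the block SLC29A1, DCK and several pathway genes named beside their values lost their call and no member gained one. A difference of SLC28A3, with at most 5 reads in any library, was not detectable at this depth, while SLC28A2, also weakly expressed, was called lower.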
